A study of Mus musculus with 3 samples.

Results

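Definitive endoderm made from mouse embryonic stem (ES) cells in 5 days was compared, gene by gene, with the ES cells it was made from. The comparison used 2 of the 3 arrays of the series, 1 array for day 0 and 1 for day 5, and covered the 20694 genes, of 27920 measured, with a signal well above background on whichever array was the brighter. Both samples were total RNA of E14.1, a mouse ES cell line, and the labels give no genetic change. On day 0 the cells stood on gelatin in serum-free N2/B27 medium with BMP4 and LIF, the factors that hold ES cells undifferentiated without serum. On day 5 they stood on collagen IV in the same base medium with activin A in place of both factors. The day 7 array, of cells that had received BMP4 and basic FGF besides activin A for the last 2 days, is quoted only beside a few genes. The series was set up to see how gene expression changes as Foxa2, a forkhead transcription factor of endoderm and liver, comes on along this route.

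Definitive endoderm is the germ layer that gives rise to the lining of the gut and to liver, pancreas and lung. It forms from the anterior primitive streak under high Nodal signalling, for which activin A is the usual substitute in culture, and its cells leave an epithelium, move and form a new one. Such a passage involves the cell surface and its surroundings as well as transcription factors, and ES cells are known for rapid division and for an unusual dependence on threonine breakdown. The gene classes below were drawn by molecular function (enzymes, adhesion proteins, channels and the like) and not by lineage. They were chosen with earlier results of these data known, so their counts describe the arrays and test no expectation.

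The label of the day 5 sample was checked against 5 marker genes. The design text describes day 0 as lacking Foxa2 expression, whereas the scanner flagged Foxa2 as well above background there. Foxa2 had a normalised log2 signal of -4.22 on day 0 and 4.29 on day 5, where 0 is the 75th percentile of the array's gene spots. Sox17, an endoderm transcription factor, went from -2.65 to 4.83, Gsc (goosecoid) from -3.86 to 5.21 and Lhx1 from -3.76 to 6.30. Cer1, which blocks Nodal outside the cell, lay at -8.92 on day 0, not well above background, and at 5.45 on day 5. The smallest of the 5 differences was that of Sox17, 179-fold, although its other probes differed by 2.70 to 6.94 on the log2 scale. All 12 ES cell state markers, from Pou5f1 (Oct4, 5.19-fold lower) to Esrrb (57.1-fold lower), were lower on day 5.

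With 1 array per day there was no replicate of any culture, so no p-value or error between samples can be given, and a difference means a difference between these 2 arrays. A gene was called higher or lower at 2-fold or more (1 on the log2 scale), and where the dim array was not well above background the fold is a lower bound, written "at least". Over all genes compared, 3483 (16.8%) were called higher and 3421 (16.5%) lower on day 5, of which 618 and 548 are bounds. The median difference of all genes compared was -0.14 on the log2 scale, and -0.13 over the 18455 genes well above background on both arrays. Well above background were 71.7% of the gene spots on day 0 and 70.9% on day 5, and no gene spot was saturated. A refitted normexp background correction (an alternative to the scanner's own) left the sign of all 505 named genes as it was. It made 214 of their folds more than 1.5 times smaller and took 31 of the genes under the 2-fold limit. The correction adds an offset of 50 intensity units, against a median intensity of 121 on day 0. Such an offset by itself shrinks folds that rest on low signals, so these counts do not measure an error of the background. The folds of dim genes below depend most on the processing and are the least certain values.

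**Figure D1:**
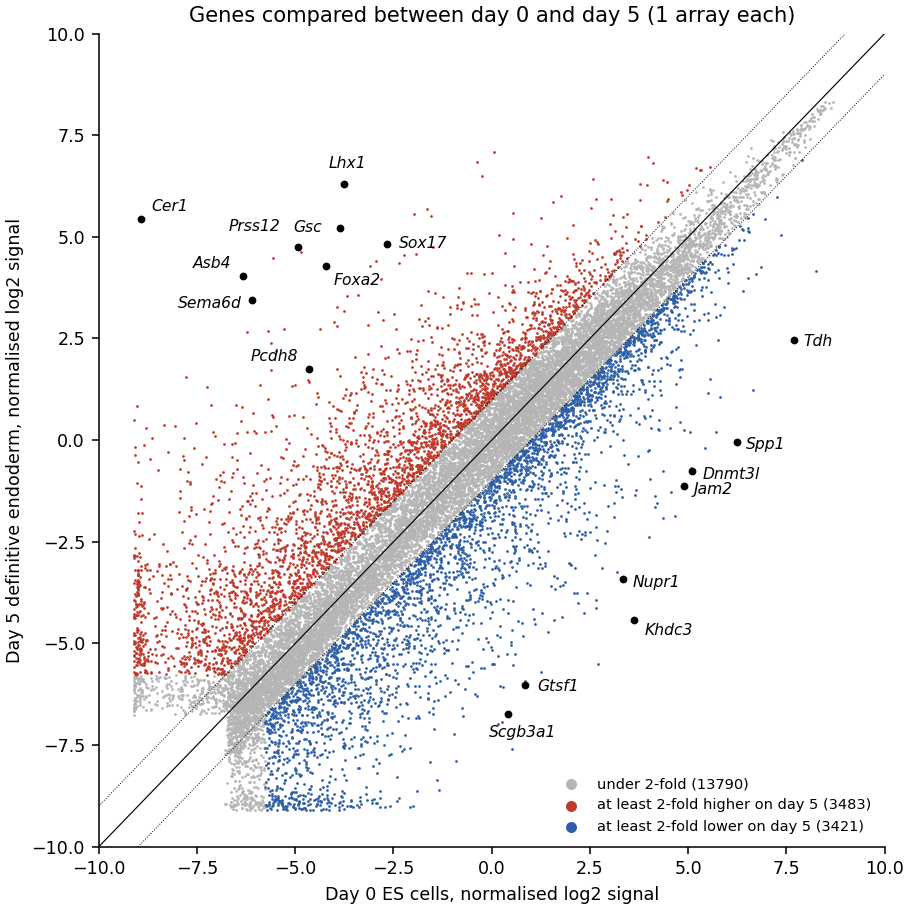
Normalised log2 signal of the 20694 genes compared on the day 0 array (x axis) and the day 5 array (y axis), 1 point per gene; the solid line marks equal signal, the dotted lines 2-fold. Red points (3483) were at least 2-fold higher and blue points (3421) at least 2-fold lower on day 5, and the named endoderm markers lie in the upper left, far from the line.

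The genes with the largest differences measured on both arrays came from several functional kinds. Asb4, a SOCS-box protein that hands targets to a ubiquitin ligase, had a log2 signal of -6.33 on day 0 and 4.05 on day 5 (1327-fold higher, and 7.64 on the log2 scale by its other probe). Prss12, a secreted serine protease also called neurotrypsin, went from -4.92 to 4.75 (819-fold). Cyp26a1, which breaks down retinoic acid, went from -4.86 to 4.64 (723-fold). Lhx1os, a transcript annotated as antisense at the Lhx1 locus, went from -5.58 to 4.49 (1067-fold), beside 1066-fold for Lhx1 itself. All of these genes were well above background on both arrays, and their large folds rest on low day 0 signals.

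Several secreted and surface proteins followed. Sema6d, a membrane semaphorin, went from -6.09 to 3.45 (745-fold), but its other probe differed by only 1.34 on the log2 scale. Cemip, which takes part in hyaluronan breakdown, went from -5.62 to 2.40 (259-fold), with its other probes between 2.04 and 7.79 on the log2 scale. Pkdcc, a secreted tyrosine kinase, went from -5.70 to 2.67 (332-fold), and Dkk1, a Wnt inhibitor, from -1.99 to 5.55 (186-fold). Flt1, a receptor for VEGF, went from -2.95 to 4.40 (164-fold), while 1 of its other probes differed by 0.22. Gpm6b, a membrane proteolipid, went from -5.48 to 2.20 (205-fold) and by 1.52 on its other compared probe. For Sema6d, Flt1 and Gpm6b the size of the difference therefore depends on the probe.

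The 25 largest also held enzymes, a channel protein, adaptors and regulators. Car4, a membrane-bound carbonic anhydrase, went from -1.65 to 5.69 (162-fold). Tph1, the first enzyme of serotonin synthesis outside the brain, went from -5.90 to 1.35 (152-fold) and lay at -3.52 on day 7. Dgkk, a diacylglycerol kinase, went from -3.69 to 3.54 (151-fold) and Clic6, a chloride intracellular channel protein, from -3.09 to 4.29 (166-fold). Amot (angiomotin), which links actin to the Hippo pathway, went from -0.38 to 6.85 (149-fold), and its other probes were higher by 2.47 to 5.25 on the log2 scale. Irs4, an insulin receptor substrate, went from -5.28 to 2.74 (260-fold), but its other probe differed by 0.34 only. Myocd (myocardin), a co-activator of serum response factor, went from -6.23 to 2.65 (470-fold), and by 4.79 on the log2 scale on its other probe. Shisa9 (165-fold), Tcstv3 (162-fold) and Cfap299, a protein of cilia and flagella (144-fold), were in this group with the markers Gsc, Foxa2 and Sox17. The other probe of Shisa9 differed by 2.47 and that of Tph1 by 3.84 on the log2 scale.

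Among genes that were not well above background on day 0, Cer1 was at least 4803-fold, Rarb, a retinoic acid receptor, at least 323-fold and Frzb, a secreted Wnt-binding protein, at least 272-fold higher. Cacna2d3, a calcium channel subunit, was at least 199-fold and Pilrb1, a paired immunoglobulin-like receptor, at least 154-fold higher. Foxa1, Rfx6 (a transcription factor of gut and islet cells), Gem (a small GTPase), Cadps2 and Nedd9 followed, at least 114-fold to 146-fold higher. The other probe of Rarb differed by 2.88 and that of Cadps2 by 1.69 on the log2 scale.

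The 25 genes furthest below their day 0 level were also of several kinds. Khdc3 (Filia), a maternal-effect RNA-binding protein also made in ES cells, went from 3.63 to -4.42 (by 8.05 on the log2 scale). Scgb3a1, a secretoglobin, went from 0.41 to -6.73 (141-fold lower) and Gtsf1, a factor of the piRNA pathway, from 0.85 to -6.02 (117-fold lower). Morc1, a repressor of transposons in the male germ line, went from 4.65 to -1.87, and Syce1, a part of the synaptonemal complex, from 2.17 to -3.76. Copies of common proteins were among them. Rpl39l, a ribosomal protein paralogue, went from 2.66 to -3.94 (96.5-fold lower) and Psma8, a proteasome subunit of spermatocytes, from 1.80 to -4.34 (70.6-fold lower). Dnmt3l, the partner of the de novo DNA methyltransferases, went from 5.11 to -0.76 (58.4-fold lower) and Mageb16 from 2.80 to -3.15 (61.5-fold lower).

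Secreted, surface and metabolic proteins were also among the 25. Spp1 (osteopontin), a secreted matrix protein, went from 6.23 to -0.04 (77.1-fold lower). Jam2, a junctional adhesion molecule, went from 4.89 to -1.13 (64.8-fold lower, and by -6.07 on its other probe), and Emp1, an epithelial membrane protein, from 0.60 to -5.25. Dpys, an enzyme of pyrimidine breakdown, went from 4.36 to -1.91 (77.0-fold lower), although its other probe differed by -1.28 only. Liph, a phospholipase, was 73.5-fold lower, and Acsbg3, an acyl-CoA synthetase, went from 2.36 to -4.25 (97.3-fold lower, but -1.58 on the log2 scale by its other probe). Transcriptional regulators here were Bcl3 (3.18 to -3.24), Vax2 (0.85 to -5.92), Nkx6-3 (0.28 to -6.06) and Nupr1, a stress-induced chromatin protein (3.34 to -3.41). Accsl (at least 157-fold), Serpinb1a, a protease inhibitor (at least 130-fold), and Gbx2, a homeobox factor (at least 122-fold), were lower with no signal well above background on day 5. The remaining 6 of the 25, Ankrd35, Platr26, Eprn, A2m, Napsa and Aoah, were 61.1-fold to 77.3-fold lower, and the remaining 7 bounds, Rhox13, Fxyd4, Spats1, Lrriq4, Nlrp4f, Smtnl1 and Muc3, at least 39.3-fold to 65.0-fold lower.

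Some of the large differences were measured on many spots. The array prints 245 probes as 10 spots each, and 179 of these were well above background on both arrays. The median standard deviation (SD) between spots was 0.079 on day 0 and 0.075 on day 5 on the log2 scale. This SD covers the printing and reading of 1 array only, and says nothing of culture, RNA or labelling. Of the 179 probes, 49 were called higher and 38 lower, and in 144 the spots of the 2 arrays did not overlap. The smallest difference without overlap was 0.18 and the largest with overlap 0.72 on the log2 scale, both under the 2-fold limit.

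In what follows each value is the mean ± SD of the unflagged spots of that array. Lhx1 lay at -3.76 ± 0.060 with 9 such spots on day 0 and at 6.30 ± 0.078 with 9 on day 5. Lhfp, a tetraspan membrane protein, was at -6.08 ± 0.198 and 0.66 ± 0.089 (107-fold). Reln (reelin), a large secreted glycoprotein, was at -5.16 ± 0.146 and -0.06 ± 0.087 (34.3-fold), and Cd40, a receptor of the tumour necrosis factor family, at -3.20 ± 0.093 and 1.64 ± 0.044 (28.7-fold). In the other direction, Mitf, a bHLH factor, was at 0.12 ± 0.044 on day 0 and -4.83 ± 0.0995 on day 5 (30.8-fold lower), while a brighter probe of Mitf printed once was 2.91-fold lower. Anxa8, an annexin, was 22.9-fold and Rps4l, a ribosomal protein paralogue, 6.62-fold lower. Ngfr, a neurotrophin receptor, differed by -3.40 on the log2 scale, and by -1.19 on its other probe. Bmp4, whose protein had been in the day 0 medium, went from 1.38 ± 0.049 to -1.31 ± 0.079 (6.47-fold lower). In all of these genes the spots of the arrays were apart, which follows from their choice by large differences. Of the 92 probes that differed by less than 2-fold, 57 also had spots that did not overlap.

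**Figure D2:**
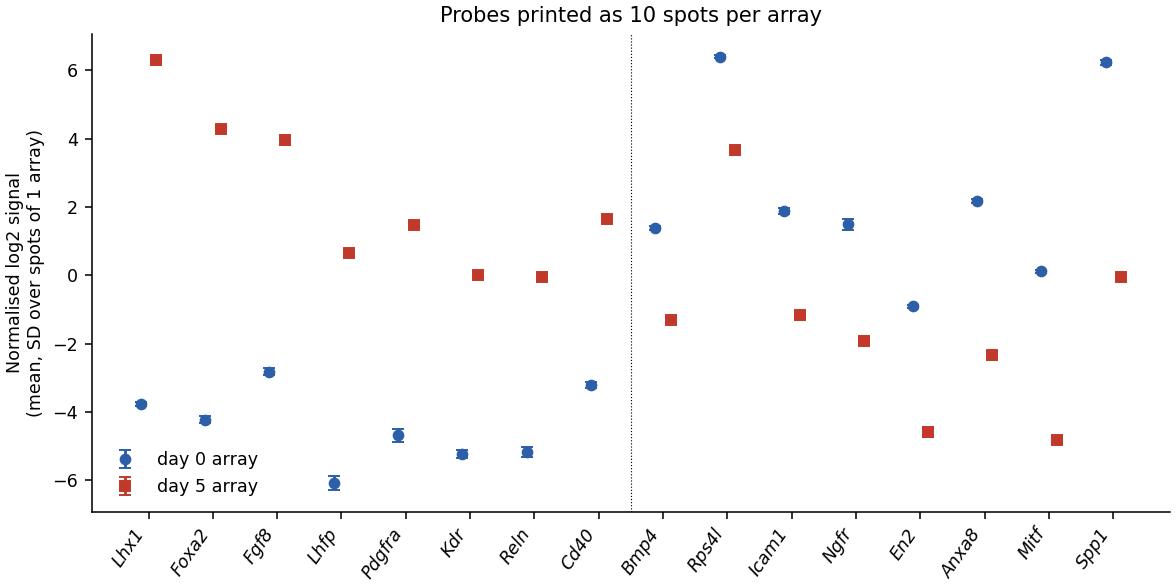
Normalised log2 signal (y axis) of 16 genes whose probe is printed as 10 spots, with blue circles for day 0 and red squares for day 5; points are means and bars the SD over the spots of 1 array. The 8 genes left of the dotted line were higher and the 8 right of it lower on day 5, with bars mostly smaller than the symbols.

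Genes were next grouped into 103 classes by symbol, of which 97 were functional and 6 held markers of other cell types. A class is described in full where at least 8 members were compared and either 50% of them were called in 1 direction or the class median lay at least 0.5 from the median of all genes (-0.14). The share of all genes called, 16.8% higher and 16.5% lower, is the background against which each count is to be read. Members not well above background on the brighter array were not compared. A member passing on 1 array enters as a bound chosen by its brighter side. For the functional classes described in full, counts or medians over members measured on both arrays are therefore given as well. For most other classes and the marker lists they are not given, and the counts there can include bounds that rest on the brighter array.

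Protocadherins, cadherin-related proteins of cell recognition, had 15 of 29 compared members higher and 0 lower on day 5, and 15 further members were not compared. Pcdh8 (paraxial protocadherin), known from gastrulation movements, went from -4.65 to 1.75 (84.7-fold). Pcdh7 was at least 75.9-fold higher, reaching -0.54. The clustered beta genes Pcdhb22 and Pcdhb21, which lie side by side, were at least 54.5-fold and 21.4-fold higher. Of the 15 calls, 10 are bounds, and among the 15 members measured on both arrays 5 were higher and 0 lower, with a median of 0.57. The clustered protocadherins resemble each other in sequence, so their probes may share signal.

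Leucine-rich repeat proteins had 25 of 79 members higher and 6 lower (median 0.52 over the 72 measured on both arrays). Lrrc25 went from -6.62 to -0.09 (92.7-fold) and was not well above background on day 7. Lgr5, a receptor for R-spondins, was at least 39.7-fold higher, and Flrt2 and Flrt3, adhesion proteins that bind Unc5 receptors, were 17.9-fold and 17.7-fold higher, with 1.78 and 4.67 on the log2 scale by their other probes. Lrrc31 and Lrrc34 were 44.1-fold and 38.8-fold lower, and Lrrc2 6.34-fold lower.

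Adhesion molecules of the immunoglobulin superfamily included both kinds: 19 of 55 were higher, 9 were lower, and the median over the 47 measured on both arrays was 0.43. Robo3, a receptor for axon guidance, went from -3.27 to 1.56 (28.4-fold) and Nrcam, a neuronal adhesion molecule, from -3.22 to 1.30 (22.9-fold). Ntm differed by 4.32 on the log2 scale and Sdk1 was 16.1-fold higher. The lower members were led by Jam2, with Icam2 (10.9-fold lower), Mcam (10.2-fold lower) and Icam1 (8.18-fold lower), adhesion molecules of endothelial and immune contacts. When each gene took the median of its probes instead, 10 of 42 were higher and 10 lower and the class median was -0.02, so the excess of higher members depends on the choice of probe.

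Tetraspanins, membrane proteins that organise receptors into clusters, were split, with 10 of 25 higher and 6 lower and all 25 measured on both arrays (median 0.86). Tspan7 went from 0.18 to 5.06 (29.3-fold), Tspan18 from -4.29 to -0.13 (17.8-fold) and Tspan12, a co-receptor of Norrin and Frizzled4, from -3.16 to 0.42 (11.9-fold). Tspan8 went from -1.31 to -5.93 (24.6-fold lower) and Cd9, a common ES cell surface protein, from 5.15 to 3.20 (3.87-fold lower).

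Heparan sulfate proteoglycans and the enzymes that build their chains, which bind and present growth factors, had 13 of 33 higher and 3 lower (median 0.50 over 31 on both arrays). Gpc4 and Gpc3, glypicans that neighbour each other on the X chromosome, went from 0.35 to 4.59 (18.9-fold) and from 1.91 to 4.98 (8.39-fold). The sulfotransferase genes Hs3st3b1 and Hs6st2 were 7.85-fold and 6.36-fold higher, the latter by 1.08 on the log2 scale on its other probe. The syndecans Sdc4 and Sdc1 were 3.54-fold and 2.44-fold lower, and Extl1, which extends the chain, 12.4-fold lower, but by -0.53 on the log2 scale on its other probe.

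Matrix metalloproteinases and their inhibitors had 9 of 16 compared members higher and 2 lower, and 10 members were not compared. The proteases Mmp14 and Mmp15, both bound to the membrane, went from 0.54 to 3.68 (8.85-fold) and from -3.69 to -0.51 (9.05-fold). The inhibitors Timp2 (-4.08 to -0.31, 13.6-fold) and Reck (-0.54 to 2.66, 9.17-fold) were higher on the same array, so that proteases and inhibitors lay on the same side. Timp1 was 6.15-fold and Mmp17 6.85-fold lower. Over the 14 members measured on both arrays the median was 1.44, and with the refitted normexp correction 7 of 16 were higher and the class median was 0.65.

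The insulin and insulin-like growth factor class, which holds ligands, receptors, adaptors and binding proteins, had 11 of 25 higher and 2 lower (median 0.69 over all 25, and 0.87 over 23 on both arrays). Among binding proteins, Igfbp5 went from -3.24 to 1.29 (4.52 on the log2 scale, and 1.21 by its other probe), and Igfbp2, Igfbp3, Igfbp4 and Igfbp6 differed by 2.02, 2.68, 1.90 and 1.33 on the log2 scale, while Igfbp7 was 4.85-fold lower. Of the receptors, Insr differed by 2.11, but by -0.45 on its other probe, and Igf1r by 0.87. Among adaptors, Grb10, an imprinted inhibitor of insulin signalling, was 18.9-fold higher and Irs1 went from -2.57 to 1.58 (17.8-fold). The ligand Igf2 differed by 1.39. Htra1, a protease that cuts binding proteins, was 11.1-fold lower.

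Proteins that act below G protein-coupled receptors, in 2 classes, had more higher than lower members. Regulators of G protein signalling, which speed the switch-off of G proteins, had 7 of 16 higher and 0 lower (median 0.71 over all 16, and 1.32 over the 13 measured on both arrays). Rgs8 (21.9-fold), Rgs5 (11.2-fold), Rgs7 (7.82-fold) and Rgs16 (7.61-fold) led, the last going from -2.26 to 0.66. The other probe of Rgs8 differed by 8.87 and that of Rgs5 by 1.87 on the log2 scale. The heterotrimeric G protein subunits themselves had 8 of 28 higher and 5 lower (median 0.47). Gng8 was 5.64-fold and Gnai1 3.90-fold higher, and Gnat1, the rod transducin, 3.30-fold lower. Gnas was 3.81-fold higher by the probe used, but the median of its probes differed by -0.05 on the log2 scale.

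Endoplasmic reticulum chaperones and disulfide isomerases had small differences that lay mostly on the same side: 4 of 41 were called higher and 0 lower, while 31 of the 40 measured on both arrays lay above the median of all genes (median 0.35). The share higher, 9.76%, was under the 16.8% of all genes, so the class entered by its median alone. Over all 41 that median lay 0.52 above that of all genes. The distance was 0.49 over members measured on both arrays, 0.41 with probe medians and 0.36 without filter and floor, short of the limit. In the other settings tried it stayed beyond the limit. With probe medians 5 of 39 were higher and 1 lower. Fkbp14, a collagen prolyl isomerase, was 4.51-fold and Dnajc10, a disulfide reductase, 2.76-fold higher. Serpinh1 (Hsp47), the collagen chaperone, which was counted with the serpins, went from 2.53 to 5.70 (9.01-fold).

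**Figure D3:**
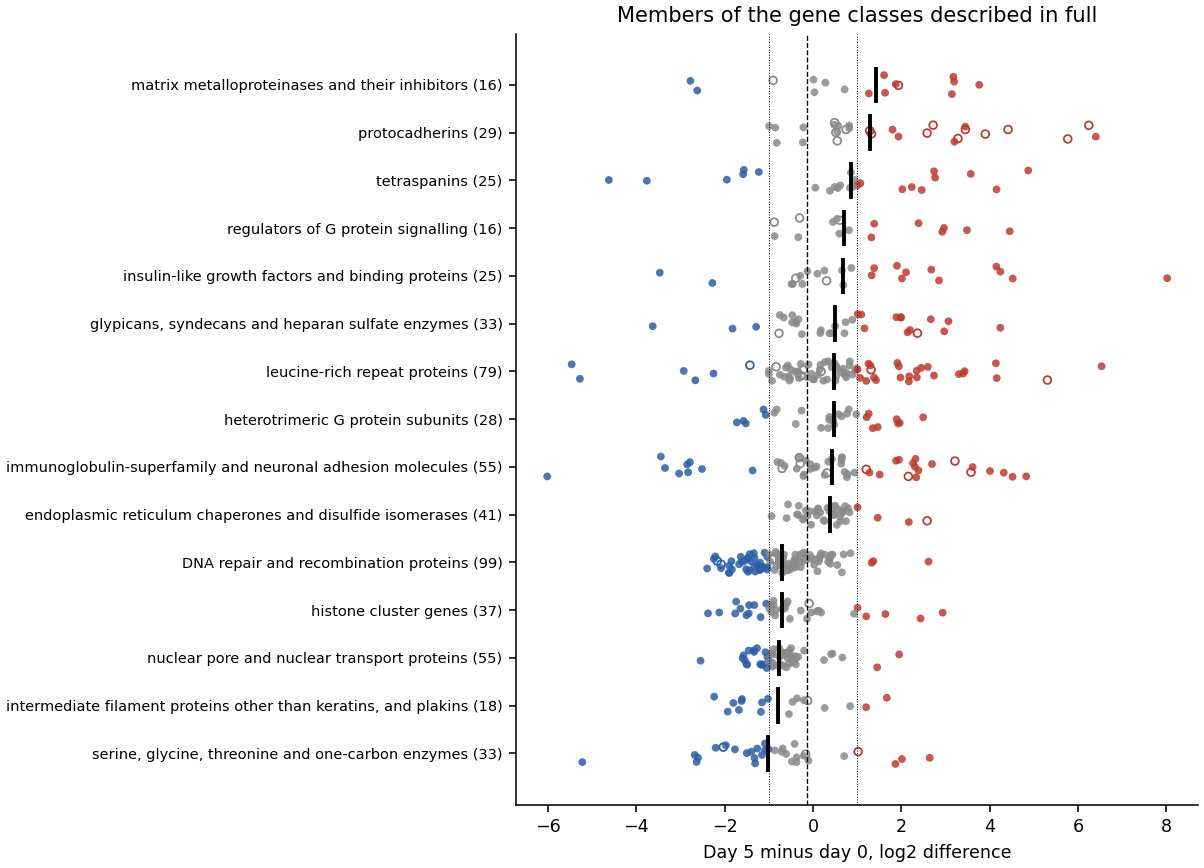
Log2 difference of day 5 minus day 0 (x axis) for each compared member of the 15 functional classes described in full, 1 row per class with its number of members; red points were called higher, blue points lower, grey points neither, and open points are bounds. Black bars are class medians, the dashed line the median of all genes (-0.14) and the dotted lines 2-fold. Medians run from -1.01 for serine and one-carbon enzymes to 1.44 for metalloproteinases and inhibitors. The histone class met the limit for a full account only after genes that are no histones were taken out by name.

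On the other side, enzymes of serine, glycine, threonine and one-carbon metabolism had 17 of 33 members lower and 4 higher on day 5 (median -1.05 over 30 on both arrays). Tdh, threonine dehydrogenase, on which mouse ES cells are known to depend, went from 7.68 to 2.46 (37.3-fold lower) and lay at 1.52 on day 7. Gcat, which acts after it, differed by -0.48, and Gldc, of the glycine cleavage system, was 2.83-fold lower. The trans-sulfuration enzymes Cth (2.15 to -0.53) and Cbs (-0.73 to -3.37) were both lower, Cbs by 6.21-fold. In the folate cycle Shmt1, Shmt2, Mthfd1 and Mthfd2 differed by -2.20, -1.31, -1.32 and -1.77, and Mtrr, which reactivates methionine synthase, was 6.08-fold lower by the probe used and differed by -0.99 to -0.06 on the log2 scale on its other probes. Psat1 (-1.97) and Psph (-1.40) of serine synthesis were lower, whereas Phgdh, their first step, differed by -0.37. Mthfd2l (6.25-fold) and Aldh1l1 (4.04-fold), 2 folate enzymes, were higher.

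Nuclear pore and nuclear transport proteins had 17 of 55 members lower and 2 higher (median -0.77, all 55 measured on both arrays), and 49 of the 55 differences were below 0. Nup85 went from 5.36 to 3.77 (3.02-fold lower), and Nup155 (2.98-fold) and Xpo5, the exporter of microRNA precursors (2.92-fold), were similar. The other probes of Nup155 differed by -0.66 and -0.53, and those of Xpo5 by -1.44 to -0.10. Ranbp17, a transport receptor, was 5.84-fold lower. Single differences were small here: with a 4-fold limit 1 member was lower.

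DNA repair and recombination proteins had 37 of 99 lower and 3 higher (median -0.68 over 96 on both arrays). Fanci, of the Fanconi anaemia pathway, was 4.74-fold lower, and Mlh3, a mismatch repair and meiosis protein, went from -0.11 to -2.32 (4.63-fold lower). Rad9b (5.26-fold lower) and Msh4 (at least 4.49-fold lower) are best known from testis. The 3 higher members were Parp8, Parp11 and Parp4, ADP-ribosyltransferases that share their name with the repair enzyme Parp1, which itself was 3.06-fold lower.

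Histone cluster genes had 11 of 37 lower and 5 higher (median -0.77 over 36 on both arrays). The class met the limit for a full account only after genes that are no histones were taken out by name, following a first look. Its median lay -0.49 from that of all genes with quantile normalization and with the deposited values, short of that limit. With probe medians the distance was -0.48, also short of it. In the other settings tried it stayed beyond the limit. H1f6, a linker histone of testis, was 5.19-fold and H3c1 4.35-fold lower, while the linker histones H1f2 (-0.66 to 2.28, 7.65-fold) and H1f0 (1.45 to 2.65, 2.31-fold) were higher. H1f3 was 3.34-fold lower by the probe used and its probes' median was higher by 1.65 on the log2 scale. Many of these genes are near copies of each other, so a probe may read more than 1 of them.

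Intermediate filament proteins other than keratins, counted with lamins and plakins, had 9 of 18 lower and 2 higher (median -0.78 over all 18, and -1.02 over 17 on both arrays). The lamin genes Lmna (3.71 to 1.78, 3.81-fold lower), Lmnb2 (-1.15) and Lmnb1 (-1.02) were all lower, and Lmna lay at 3.54 on day 7. Des (desmin) was 3.49-fold and Dst (dystonin) 3.20-fold lower. Nes (nestin) and Nefl were 3.19-fold and 2.30-fold higher, and Vim (vimentin) differed by 0.84, under the limit.

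The other functional classes did not meet the limits for a full account. In metabolism, none of 26 citric acid cycle enzymes was called in either direction. Purine and pyrimidine enzymes had 5 of 54 higher and 15 lower, and both of their extremes belong to pyrimidine breakdown: Dpyd, the first step, went from -6.48 to -0.70 (54.6-fold higher), and Dpys, the second, was 77.0-fold lower. Glutathione and antioxidant enzymes had 6 of 55 higher and 16 lower, aldehyde and alcohol dehydrogenases with aldo-keto reductases 9 of 60 higher and 20 lower, and phospholipases 7 of 59 higher and 15 lower. Acat1 of ketone metabolism was 6.49-fold higher, and Bdh2 24.2-fold and Acss1 9.07-fold lower.

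Several classes of protein synthesis, turnover and RNA handling had few calls in the higher direction. Among 50 proteasome subunits 1 was higher, the interferon-inducible Psmb8 (2.46-fold), and 2 were lower, with Psma8 at the end. Aminoacyl-tRNA synthetases had 1 of 36 higher and 9 lower, translation factors 2 of 65 higher and 6 lower, and chaperonin and prefoldin subunits 0 of 15 higher and 2 lower. DEAD-box and DEAH-box helicases had 0 of 52 higher and 12 lower, led by Ddx4 (Vasa), a germ cell helicase, at 14.4-fold lower. In each of the 5 classes just named the share of higher genes was under the 16.8% of all genes. TRIM proteins (11 of 52, 21.2%), Kelch and BTB proteins (17 of 81) and Asb proteins (3 of 15) lay above it. Proteasome subunits, translation factors and chaperonin and prefoldin subunits were also under the 16.5% of all genes called lower, so they were called rarely in both directions. The synthetases and the helicases lay above that share. Among all genes the share higher was only 7.92% in the brightest of 5 equal groups by mean signal. These classes were not compared with genes of like signal.

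Single members of other RNA and turnover classes differed more. Rbm24, a splicing factor of muscle, went from -5.02 to 0.62 (49.9-fold higher), and Klhl6 of the Kelch proteins was at least 60.7-fold higher. Trim9 was at least 65.7-fold higher by the probe used, while its other compared probe differed by -0.60. Usp18, the interferon-induced protease that removes ISG15, went from -5.68 to 1.02 (104-fold higher), in a class of 49 deubiquitinases with 4 higher and 10 lower. Zinc finger proteins named Zfp had 46 of 340 higher and 66 lower.

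Among cytoskeletal and signalling classes, actins and actin-binding proteins had 20 of 77 higher and 11 lower, with Pdlim3, a Z-disc protein, at 48.4-fold higher. Ras-family genes had 13 of 66 higher and 15 lower. Cyclases, phosphodiesterases and protein kinase A subunits had 19 of 59 higher and 10 lower. Hipk2, a nuclear kinase, went from -1.24 to 3.52 (27.1-fold), with its other probes between 0.99 and 1.31.

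Channels and carriers held large single differences. Potassium channels had 15 of 67 higher and 10 lower, and Kcnmb4, a regulatory subunit of the large-conductance channel, went from -4.36 to 2.73 (136-fold). Organic ion and monocarboxylate carriers had 17 of 69 higher and 14 lower, led by Slc22a23 (34.9-fold higher). Slc6a4, the serotonin transporter, was at least 37.6-fold higher on the array on which Tph1 was also higher. ABC transporters had 4 of 35 higher and 10 lower. Transmembrane proteins known only by a Tmem name had 46 of 182 higher and 17 lower, and SNAREs with synaptotagmins and exocytosis proteins 23 of 84 higher and 12 lower. Of 1067 olfactory, vomeronasal and taste receptors on the array 400 were compared, and 25 of these were higher and 22 lower, well under the background shares. Bounds made up 16 of the 25 and 12 of the 22, and over the 295 measured on both arrays 9 were higher and 10 lower. These receptors were dim, with a summed day 0 signal of 20.4 over the 400, and were not compared with genes of like signal.

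In defence genes, interferon-induced and innate sensing genes had 19 members (18.1%) higher and 28 (26.7%) lower. Iigp1, an interferon-inducible GTPase, was at least 54.8-fold higher, and Nlrp4f, a member of the NLR family expressed in oocytes, at least 42.9-fold lower. Serpins had 8 of 34 higher and 11 lower and immediate early genes 12 of 36 higher and 6 lower. S100 proteins, annexins and galectins had 11 of 34 higher and 9 lower, with Lgals3 (galectin 3) going from 4.03 to -0.95 (31.7-fold lower).

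Markers of cell types other than definitive endoderm also differed, and in bulk RNA a larger share of such cells and more RNA per cell cannot be told apart. Of 15 extraembryonic endoderm markers 9 were higher and 3 lower, and their summed signal, in units of each array's 75th percentile, was 60.3 on day 0 and 129 on day 5. Pdgfra (71.0-fold) and Col4a1 (3.45 on the log2 scale) were higher, and Ttr was at least 5.32-fold higher. The 3 lower ones were Lama1, a laminin chain (12.6-fold), Rhox5, a homeobox factor (8.44-fold), and Sox7 (2.10-fold, but -0.12 on the log2 scale by its other probe). Of 11 trophoblast markers 5 were higher and 2 lower, with a sum of 9.88 and 23.5. Eomes (108-fold), also a primitive streak gene, was higher, and Cdx2 was 18.8-fold lower. Of 12 cardiac and blood mesoderm markers 5 were higher and 3 lower, with a sum of 6.72 and 31.6; Kdr was 38.1-fold higher, Pecam1 at least 29.5-fold lower, and Hbb-bh1 was not well above background on day 5. Of 9 compared fibroblast or feeder markers 3 were higher and 2 lower, with a sum of 4.35 and 7.11, and Lum was not well above background on either array. Of 9 compared neural ectoderm markers 1, Nes, was higher and 3 lower, with a sum of 2.17 and 3.27, and Pax3 was not compared. Nes went from -0.20 to 1.47, while the other 8 differences were below 0 (median of the 9, -0.49), so only Nes added to the rise of that sum. The summed ES cell state markers were 608 on day 0 and 32.0 on day 5. The part that such cells have in the class differences above was not tested.

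Differences were next laid out along the chromosomes, with probe positions of the mouse build mm9 as the files give them. A run was defined as 5 or more compared genes in a row with the same call. There were 15 runs of higher genes (83 genes) and 26 runs of lower genes (153 genes). Neighbouring entries can be several probes of 1 transcript under clone names, and 7 and 19 of these runs held at least 4 genes with proper names. The longest runs held 10 genes, and both were runs of lower genes built around families of antiviral proteins.

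On chromosome 5 (121129217 to 121371569), Rasal1, Dtx1 and 8 Oas genes were lower on day 5. Oas proteins sense double-stranded RNA and are classical interferon-induced genes. Oas2 went from -1.37 to -6.39 (32.3-fold lower), Oas1d, known from oocytes, from -1.48 to -5.14 (12.7-fold lower), Oas1a from 0.75 to -1.63 and Oas1f from 1.66 to -0.78. Oas1c had the smallest difference, 2.04-fold. On chromosome 7 (148135949 to 148287451) the run began with Ifitm5, Ifitm2, Ifitm1, Ifitm3 and Ifitm6 and went on with B4galnt4, Pkp3, Sigirr and Ano9. Ifitm1, a membrane protein that blocks virus entry and marks early germ cells, went from 5.54 to 1.51 (16.4-fold lower), Ifitm3 from 4.73 to 2.28 (5.46-fold lower) and Ifitm2 from 5.35 to 4.15 (2.30-fold lower). Usp18, Iigp1 and Psmb8, which are also interferon-induced, were higher on the same array, so interferon-induced genes were found on both sides. Members of the Oas1 and Ifitm families are alike in sequence, and their probes may share part of their signal.

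Other runs joined genes of related or unrelated function. On chromosome 5 (8440178 to 8959167) the drug efflux pumps Abcb1a (at least 27.1-fold lower) and Abcb1b (2.16 to -0.90, 8.33-fold lower) and the phospholipid exporter Abcb4 (1.79 to -1.48, 9.64-fold lower) lay in a run with Rundc3b and Slc25a40. On chromosome 6 (5114866 to 5382945) the paraoxonase genes Pon1 (at least 7.73-fold), Pon3 (2.48-fold) and Pon2 (-3.94 to -0.65, 9.79-fold) were higher together with their neighbour Asb4; Ppp1r9a at the other end was 2.99-fold higher by the probe used, but its other probes differed by -1.40 to 0.44. On chromosome 9 (78186458 to 78318443) Dppa5a, Ooep, Cgas, a sensor of cytosolic DNA, and Mto1 were lower, although the other probe of Mto1 differed by -0.17. On chromosome 10 (126732518 to 126793924) Ddit3 (CHOP), Mars1, Arhgap9, Gli1, Inhbe and Inhbc were lower, and on chromosome 7 (114333662 to 114898306) Nlrp14 (31.1-fold lower), Rbmxl2 (54.9-fold lower), Syt9, Ppfibp2 and Cyb5r2. On chromosome 14 (66600151 to 66772468) Clu, Gulo, Adam2, Ephx2 (5.81 to 1.07, 26.8-fold lower) and Ptk2b were lower.

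**Figure D4:**
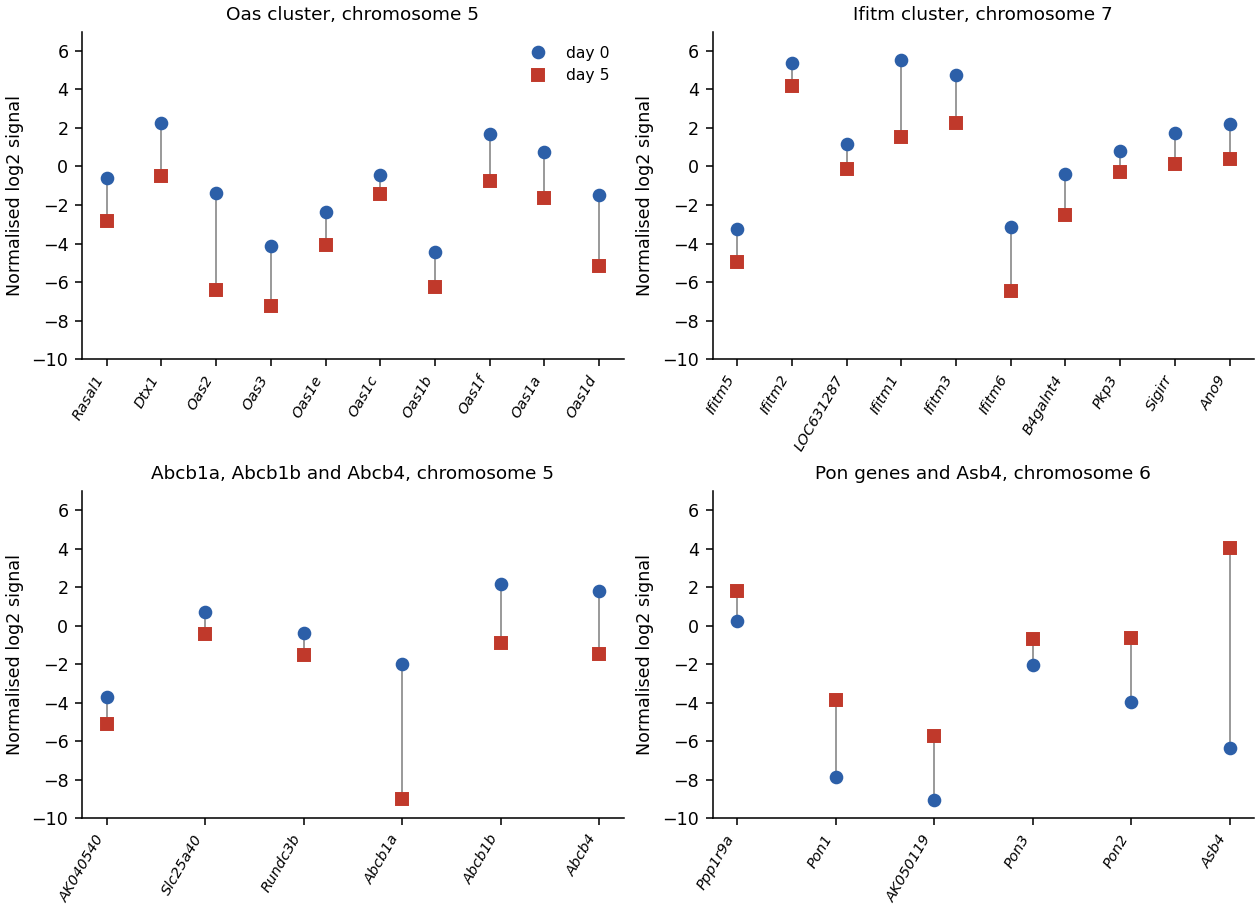
Normalised log2 signal (y axis) on day 0 (blue circles) and day 5 (red squares) of genes in 4 runs, in their order along the chromosome (x axis, not to scale). Every gene of the Oas, Ifitm and Abcb1 runs was lower and every gene of the run from Ppp1r9a to Asb4 higher on day 5; signals below about -6.8 are not well above background.

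Shares over whole chromosomes were as follows. The X chromosome had the highest share of higher genes, 174 of 740 (23.5%), with 18.2% lower. Its higher genes included Irs4, Gpm6b, Dgkk, Amot, Gpc3 and Gpc4 named above. It also held a run of 5 lower genes, Tmem35a, Cenpi, Drp2, Taf7l and Timm8a1. Chromosome 3 had 20.2% higher and 12.6% lower, and chromosome 7 the lowest share of higher genes (12.7%) with 18.9% lower. Genes share neighbours and families, and no test was made of these shares.

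Promoter composition was taken from RefSeq sequences of the build GRCm38.p6, each from 250 bases before to 50 bases after a gene's start. Vertebrate promoters fall into kinds rich in the dinucleotide CpG, common at broadly expressed genes, and kinds poor in it, common at tissue-restricted genes. Of the genes compared, 10535 (50.9%) had exactly 1 promoter in that table and were used. CpG observed over expected was called high at 0.6 or more, low below 0.35 and intermediate in between. The following 4 are, antisense and clone names aside, the genes with the largest difference measured on both arrays in each direction, in the high and in the low class; the 250 bases before the start are printed 5′ to 3′ on the gene's strand, with CG in capitals, to show what these classes look like.

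Lhx1, high CpG, higher on day 5 (chr11:84525535-84525784, minus strand): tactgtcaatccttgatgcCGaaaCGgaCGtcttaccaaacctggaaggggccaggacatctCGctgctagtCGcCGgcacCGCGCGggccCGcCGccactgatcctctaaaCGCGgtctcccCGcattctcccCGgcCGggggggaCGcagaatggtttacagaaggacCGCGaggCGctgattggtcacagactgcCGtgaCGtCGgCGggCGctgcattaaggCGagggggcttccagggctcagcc
Rpl39l, high CpG, lower on day 5 (chr16:10169978-10170227, plus strand): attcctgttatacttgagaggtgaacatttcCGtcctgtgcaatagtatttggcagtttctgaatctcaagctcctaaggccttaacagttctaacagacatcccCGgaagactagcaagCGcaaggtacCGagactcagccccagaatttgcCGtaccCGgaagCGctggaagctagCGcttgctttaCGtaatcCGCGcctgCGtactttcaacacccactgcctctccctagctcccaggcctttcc
Dkk1, low CpG, higher on day 5 (chr19:30549497-30549746, minus strand): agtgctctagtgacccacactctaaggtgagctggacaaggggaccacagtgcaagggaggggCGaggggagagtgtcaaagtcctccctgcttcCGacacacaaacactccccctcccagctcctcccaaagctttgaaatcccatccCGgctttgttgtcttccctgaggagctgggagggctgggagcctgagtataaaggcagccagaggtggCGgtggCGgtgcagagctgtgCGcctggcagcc
Khdc3, low CpG, lower on day 5 (chr9:73102148-73102397, plus strand): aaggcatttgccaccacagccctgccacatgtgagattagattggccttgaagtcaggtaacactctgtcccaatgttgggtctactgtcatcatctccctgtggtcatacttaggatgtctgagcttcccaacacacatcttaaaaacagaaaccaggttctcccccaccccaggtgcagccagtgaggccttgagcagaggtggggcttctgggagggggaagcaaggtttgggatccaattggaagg

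The printed stretch of Lhx1 holds 26 CG and that of Rpl39l 12, against 6 for Dkk1 and 0 for Khdc3. Over the whole 300 bases, observed over expected was 0.96 for Lhx1, 0.84 for Rpl39l, 0.33 for Dkk1 and 0.00 for Khdc3.

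Genes with high-CpG promoters were the least often called: of 6610, 994 were higher and 1000 (15.1%) lower. Of 1667 with intermediate promoters 19.4% were higher and 20.9% lower, and of 2258 with low-CpG promoters 16.6% and 21.4%. Differences of at least 16-fold were rarer still in the high class, at 1.18% higher and 0.61% lower, against 1.86% and 2.39% in the low class. The 2 classes differ in level, with a median day 0 signal of 0.81 in the high and -4.59 in the low class, and dim genes are measured less well. Among genes with a mean signal between -4 and -2, 151 of 713 high-CpG genes (21.2%) and 92 of 405 low-CpG genes (22.7%) were lower on day 5, while 27.5% and 19.8% were higher. Between -2 and 0, 169 of 1222 high-CpG genes (13.8%) and 32.5% of the low-CpG genes were lower, and 20.7% and 23.3% higher. Between 0 and 2 the numbers lower were 271 of 1861 (14.6%) and 37 of 137, and the shares higher 13.2% and 15.3%. In the brighter 2 of these ranges low-CpG genes were thus called lower more often than high-CpG genes of like signal, and in the dimmest range the shares lower were close and high-CpG genes were more often higher.

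The letters TATAAA, the core of a TATA box, stood on the gene's strand within the 300 bases in 8.32% of all 32851 promoters of the table, and on either strand in 13.6%. Of the 690 compared genes with them on the gene's strand 15.5% were higher and 17.8% lower, and of the 9845 without them 16.1% and 17.4%. With either strand counted, 15.3% of 1033 genes were higher and 18.8% lower. At 16-fold, 20 of the 690 (2.90%) and 144 of the 9845 (1.46%) were higher, and 8 and 118 lower. The genes with TATAAA were dimmer, with a median day 0 signal of -2.97 against -0.34, and the share of 16-fold differences itself varied with level, from 0.68% of genes in the brightest of 5 equal groups by mean signal to 5.00% in the next to dimmest. Such a match is a run of letters and not a measured binding site.

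**Figure D5:**
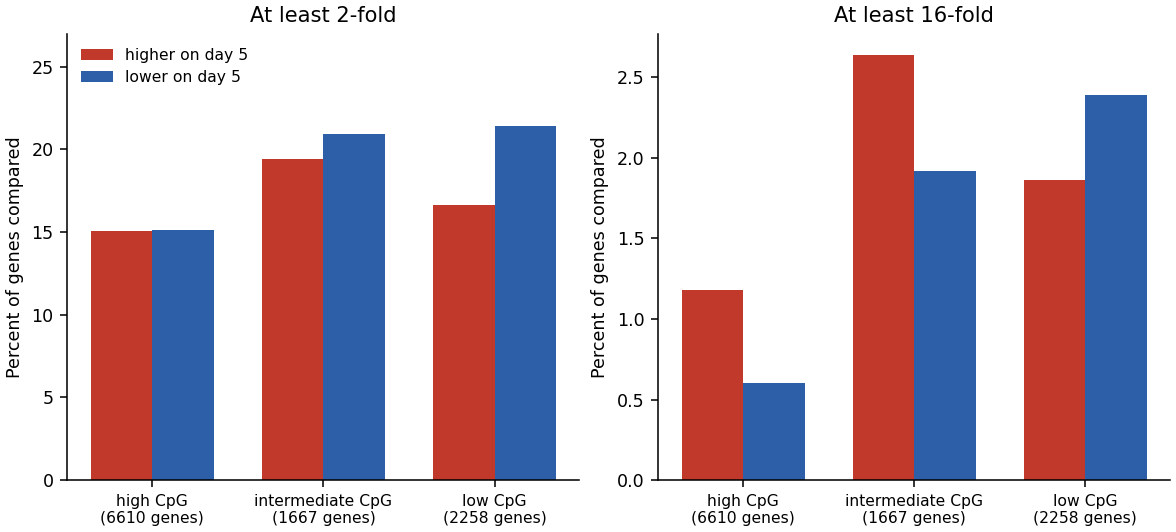
Percent of compared genes (y axis) that were higher (red bars) or lower (blue bars) on day 5, by CpG class of the promoter, at 2-fold (left) and at 16-fold (right). At 16-fold the high-CpG class has 1.18% higher and 0.61% lower, below both other classes.

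How often a gene was called also depended on its level and on how it is annotated. In 5 equal groups by mean signal, the share called higher was 17.8%, 21.2%, 21.8%, 15.5% and 7.92% from the dimmest to the brightest, and the share lower 16.3%, 19.3%, 18.2%, 15.1% and 13.8%. In the dimmest group, 540 of 735 higher calls were bounds. Long noncoding RNA genes had 86 of 437 higher and 75 lower, near the shares of the 15838 protein-coding genes (17.2% and 17.3%). The 4251 names known from the array files alone, mostly clones, had 15.3% higher and 13.5% lower.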

How the data were processed

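Total RNA of 1 sample each of day 0, day 5 and day 7 was labelled with Cy3 and hybridised to 1 slide of one-colour Agilent whole-mouse-genome arrays. Per the file headers, the authors extracted the scans with Agilent Feature Extraction 10.5.1.1, with probe positions of mm9. The deposited scanner files hold intensity values per spot (processed signal, mean signal and median background). The deposited value table holds log2 values (column medians 7.17 to 7.18, r of at least 0.9998 with the scanner values); the sources used here do not give how the arrays were equalised, and it served as an alternative.

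From the processed signal, log2 values were taken, each array's 75th percentile over 43379 gene spots was subtracted, outlier-flagged spots (149 on day 0, 104 on day 5) and control spots were dropped, and spots averaged per probe. Probes were named through RefSeq accessions (24991), symbols (5960) or synonyms (1767) of GRCm38.p6, and 8456 kept the file's name. A gene took the probe well above background on the most arrays, then the brightest. Where only the brighter array was well above background, the dim value was floored at the lowest value well above background on its array (-6.78 on day 0, -6.76 on day 5). There was no replicate, hence no test; the number of arrays limits the precision. Named genes were the 5 markers, the 25 largest and 25 smallest differences on both arrays (without clone-type names), the 10 largest bounds each way, up to 4 called members each way of a class described in full (1 in other classes), members of runs, and up to 8 probes each way of those printed as 10 spots. Some genes and 1 class that the rule names are not reported here. A few further class members are quoted for context and were chosen after their values were seen. The members and gene lists were chosen with earlier results of these data known. H13 and H19, which are no histones, the binding proteins Rgs9bp and Rgs7bp, Gnb1l and an opposite-strand transcript were taken out of classes by name after a first look; with H13 and H19 in it, the histone class would not have met the limit. Genes of chromosome 18 were left out of the choice of promoters to print. Computations used R 4.3.3, limma 3.58.1 (normexp, offset 50), Python 3.11.15, numpy 2.4.6 and pandas 2.3.3. The steps that call genes were tested on simulated data.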

Additional observations from a re-analysis of the deposited data

How the results depend on the processing

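No paired analysis was possible because each day has 1 array. The normexp correction was refitted without spots flagged as outliers, since a few spots with a local background far above their signal (down to -60709 intensity units on day 0) spoilt the fit on all spots. It gave 2464 genes higher and 2827 lower. Under the other scalings and the deposited values, the number of genes higher ran from 3554 to 3896 and lower from 2879 to 3279, and 52.2% to 57.5% of calls were higher against 50.45% here. The most distant of these centred the genes bright on both arrays on 0, which moved the median of all genes from -0.14 to -0.01. Without filter and floor 4142 were higher and 4332 lower. With a 4-fold limit, 1480 genes were higher and 1209 lower. At that limit the members called in the larger direction were 6 serine and one-carbon enzymes, 2 endoplasmic reticulum chaperones, 1 nuclear pore protein, 6 DNA repair proteins, 1 intermediate filament protein, 1 G protein subunit, 14 leucine-rich repeat proteins, 7 heparan sulfate genes, 4 metalloproteinase genes, 2 histones and 1 fibroblast marker. Over genes measured on both arrays, 5 protocadherins and 3 trophoblast markers were higher. When the probes of a gene were replaced by their median, 10 immunoglobulin-superfamily genes and 1 fibroblast marker were higher, and the sign turned for Gnas (-0.052), Gja3 (-1.01), H1f3 (1.65) and Zfp369 (0.36). That median took 19 of the 467 named genes it could be computed for under the 2-fold limit, and normexp 31 of 505. Runs of 4 or more neighbours numbered 63 higher and 62 lower. In the 20 classes described in full (marker lists included), every other count in the larger direction stayed within 1.5 times, and no class median, taken against that of all genes, changed sign under these alternatives. Some of these distances fell under the 0.5 used for a full account. Without filter and floor, endoplasmic reticulum chaperones came to 0.36, leucine-rich repeat proteins to 0.13 and immunoglobulin-superfamily genes to 0.15. In that setting G protein subunits and heparan sulfate genes came to 0.41, metalloproteinase genes to 0.49 and trophoblast markers to 0.39. Over genes measured on both arrays, endoplasmic reticulum chaperones came to 0.49 and trophoblast markers to 0.18. With probe medians, immunoglobulin-superfamily genes came to 0.13, histones to -0.48 and endoplasmic reticulum chaperones to 0.41. With normexp, DNA repair proteins came to -0.46, intermediate filament proteins to -0.45, immunoglobulin-superfamily genes to 0.38 and leucine-rich repeat proteins to 0.49. Trophoblast and fibroblast markers came to 0.39 and 0.38 with normexp. Quantile normalization and the deposited values each gave 0.45 for immunoglobulin-superfamily genes, -0.49 for histones and 0.43 for trophoblast markers. With 4 equal groups by CpG in place of fixed limits, the group poorest in CpG was still called more often than the richest, at 17.1% against 12.1% higher and 21.8% against 15.2% lower. Weak signal also limits the precision: 2239 of the genes compared were well above background on 1 array only.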
